A study of Mus musculus with 4 samples.

Results

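The RNA exosome is the main 3′ to 5′ RNA-degrading machine of the nucleus and cytoplasm. The genes of its subunits, Exosc1 to Exosc10, were followed in newly made RNA of mouse embryonic stem cells before and after auxin-driven loss of SNRNP70 (U1-70K), which belongs to U1 snRNP, the RNA-protein particle that binds 5′ splice sites. They were chosen by symbol in the deposited count table, and all 10 were found, each as 1 row among 55401 genes. All 10 also passed the filter on low counts that left 17344 genes for testing, although Exosc6 passed it only through its counts after auxin.

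The cells were embryonic stem cells of the 129/Ola line grown with leukemia inhibitory factor. Titles give all 4 libraries as the SNRNP70AID line, in which SNRNP70 carries an auxin-inducible degron, while the genotype field calls the untreated libraries WT and the treated ones SNRNP70 degradation. The groups compared were 2 libraries without the auxin IAA (AID 0h) against 2 libraries after 5 h of IAA (AID 5h). RNA that had taken up 4-thiouridine (4sU), a uridine analogue, was tagged with biotin-HPDP, caught on streptavidin and sequenced, so the values report RNA made during labelling rather than the standing pool. The sources used here do not give the promoter of the auxin receptor, the number of clones behind the line, the labelling time or any spike-in. The series text calls the replicates independent, but nothing says that they came from separate cultures, and p-values may then reflect technical spread alone.

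Background on the complex orders the results that follow. The core is a barrel without catalytic activity of its own. A cap of EXOSC1, EXOSC2 and EXOSC3, which carry RNA-binding S1 or KH domains, sits on a ring of RNase PH-like proteins. The ring is built of the partner pairs EXOSC4 with EXOSC9, EXOSC5 with EXOSC8, and EXOSC6 with EXOSC7. RNA is cut by nucleases docked to this barrel: EXOSC10 in the nucleus, DIS3 below the ring, and DIS3L in the cytoplasm. In the nucleus the exosome removes promoter upstream transcripts and RNAs that end early, the kind of transcript that U1 snRNP is known to guard against, and it trims ribosomal RNA and snoRNA precursors.

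Totals ran from 7174772 to 17752887 counts. Embryonic stem cell markers were present, with summed levels of 2939 to 3069 CPM (a gene's count relative to the library's total, TMM-normalised as all CPM here) at 0 h and 3304 to 3315 CPM at 5 h over 8 of 8 genes, of which 3 were called higher and 2 lower. Of 6 fibroblast markers, Col3a1, Lum and Postn were at 0 in every library, and the list summed to 9.16 to 10.1 CPM at 0 h and 12.5 to 13.1 CPM at 5 h. Primitive endoderm markers summed to 4.71 to 9.53 CPM and trophectoderm markers to 4.68 to 5.52 CPM over the 4 libraries. Of 4 early neural markers 1 was called higher and 1 lower, and the list summed to 61.5 to 62.2 CPM at 0 h and 61.9 to 71.0 CPM at 5 h. The part of these markers in the subunit values was not tested. Labelled Snrnp70 RNA was at 249 and 243 CPM at 0 h and at 451 and 475 CPM at 5 h. Since auxin removes the protein and not its mRNA, these levels are no check of the labels.

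In the edgeR quasi-likelihood fit, with p-values adjusted over all tested genes (Benjamini-Hochberg, threshold 0.05), 3 subunit genes rose after auxin (Exosc6, Exosc9 and Exosc10), 4 fell (Exosc2, Exosc5, Exosc7 and Exosc8) and 3 did not pass (Exosc1, Exosc3 and Exosc4). Calls were common everywhere: 22.0% of all tested genes were called higher and 21.2% lower, 43.2% in all, so 7 called of 10 has to be read against that share. Exosc6 could be tested only because it was high after auxin, and without it 6 of 9 were called. The median log2 fold change of the subunits was -0.01, beside -0.02 for all tested genes. The range was wide, from -0.57 for Exosc7 to 2.78 for Exosc6. Without Exosc6 the highest value was 0.45. In a bulk measurement, fewer cells of a type and less RNA per cell cannot be told apart.

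The summed level of the 10 genes was 496 and 489 CPM at 0 h and 472 and 470 CPM at 5 h. Scaled by library totals instead, the sums were 543 and 535 CPM at 0 h and 437 and 421 CPM at 5 h. The 5 h libraries were lower by either measure, and the size of that difference depended on the scaling. The scaling also set the split of calls over all genes. With library totals 13.2% were called higher and 30.3% lower, and with scaling to mitochondrially encoded genes 2.28% and 51.2%. The median gene moved to -0.28 and -0.86 with these scalings, so a change below means one set against the other genes under TMM. Mitochondrially encoded genes took 4.34% to 4.41% of counts at 0 h and 6.03% to 7.17% at 5 h, and their part in the subunit values was not tested.

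**Figure D1:**
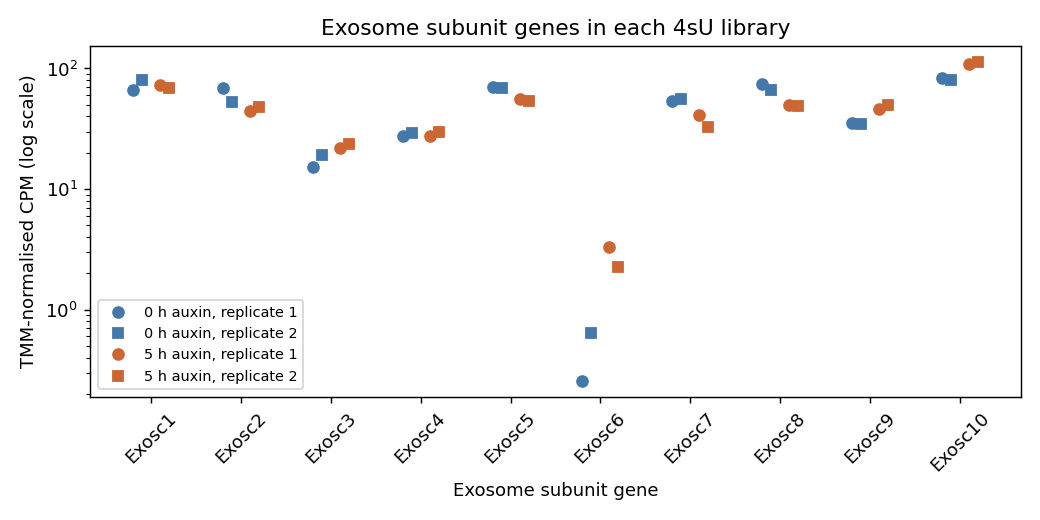
TMM-normalised CPM (log axis) of each exosome subunit gene in the 4 libraries, blue for 0 h and orange for 5 h of auxin, circles for replicate 1 and squares for replicate 2. The 5 h points lie below both 0 h points for Exosc2, Exosc5, Exosc7 and Exosc8, above them for Exosc3, Exosc6, Exosc9 and Exosc10, and among them for Exosc1 and Exosc4.

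The cap genes did not move together. Exosc2, whose product lines the entry of the barrel with S1 and KH domains, was at 69.1 and 53.1 CPM at 0 h and at 44.3 and 47.6 CPM at 5 h. Both treated libraries were lower than both untreated ones, and the untreated libraries differed from each other more than the treated ones did. Exosc2 fell by 0.42 ± 0.15 on the log2 scale (SE; edgeR adjusted p = 0.0395). The call was lost without 0 h replicate 1, where the value was -0.21 (adjusted p = 0.460), without 5 h replicate 1 (-0.38, adjusted p = 0.0842) and with DESeq2 (adjusted p = 0.0760). Exosc2 lies on chromosome 2 from 31670715 to 31681352 (GRCm38, to which mm10 corresponds), and the lncRNA gene Gm13427 on the other strand overlaps 4987 bases of it. Gm13427 had 5 to 11 counts per library and was not tested, beside 417 to 1342 counts for Exosc2.

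Exosc3, the cap protein altered in a human pontocerebellar hypoplasia, was at 15.2 and 19.1 CPM at 0 h and at 21.8 and 23.7 CPM at 5 h. Both treated libraries were higher, but the difference of 0.42 ± 0.19 did not pass (edgeR adjusted p = 0.0966), and its 95% interval ran from 0.0033 to 0.84. Exosc1, the cap subunit also called CSL4, was at 66.6 and 80.3 CPM at 0 h and at 73.5 and 68.6 CPM at 5 h. The groups overlapped, and the log2 fold change of -0.04 had an interval from -0.32 to 0.24 (edgeR adjusted p = 0.830). A ratio of counts within a library does not depend on scaling, and Exosc3 over Exosc2 was 0.221 and 0.360 at 0 h and 0.492 and 0.498 at 5 h. The treated libraries were alike and above both untreated ones. With 2 libraries against 2, an exact two-sided permutation test cannot go below p = 0.333, so these ratios are given without one.

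In the ring, the pair EXOSC5 and EXOSC8 was lower on both sides. Exosc8, an RNase PH-like subunit, was at 74.2 and 66.4 CPM at 0 h and at 49.6 and 48.9 CPM at 5 h. The 5 h libraries were close to each other and clearly apart from the 0 h libraries. Exosc8 fell by 0.52 ± 0.12 on the log2 scale, or 1.43-fold (edgeR adjusted p = 0.00576), and missed the threshold without 0 h replicate 1 (-0.43, adjusted p = 0.0798). Its partner Exosc5 was at 70.3 and 69.3 CPM at 0 h and at 56.1 and 53.6 CPM at 5 h. The spread within each group was small beside the gap between them. Exosc5 fell by 0.35 ± 0.11 (edgeR adjusted p = 0.0315), the smallest change among the called subunits. That call was lost without 0 h replicate 1 (adjusted p = 0.177), without 0 h replicate 2 (0.136), without 5 h replicate 2 (0.0532), with no filter (0.0614) and with DESeq2 (0.0865). The value itself stayed between -0.39 and -0.31 under the alternatives that kept TMM-like scaling.

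In the pair EXOSC6 and EXOSC7, Exosc6 was too low at 0 h for its direction to be set against that of its partner. Exosc7, an RNase PH-like subunit, was at 54.0 and 55.5 CPM at 0 h and at 40.8 and 32.7 CPM at 5 h. It fell by 0.57 ± 0.14 on the log2 scale, or 1.48-fold (edgeR adjusted p = 0.00853). Exosc7 was the subunit whose call held under all 12 alternatives run, with values from -1.40 with mitochondrial scaling to -0.42 without 5 h replicate 2. Among these, library totals and mitochondrial scaling move the median gene to -0.28 and -0.86, which favours a call of lower.

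Exosc6 was barely detected before auxin. It had 5 counts in each 0 h library, and 48 and 21 counts in the 5 h libraries, or 0.257 and 0.636 CPM against 3.31 and 2.27 CPM. A floor of 3 counts corresponded to 0.154 to 0.382 CPM over the 4 libraries, so the untreated values lay just above it. The log2 fold change was 2.78 ± 0.74, with an interval from 1.14 to 4.41 (edgeR adjusted p = 0.0112). Exosc6 entered the test only through the group in which it was high and so had to differ, and its value is a description rather than support for a rise. Without 5 h replicate 1 its adjusted p was 0.0621, and without 0 h replicate 1 and 0 h replicate 2 its log2 fold change was 2.13 and 3.41. Counts of this kind come from coverage, and 1 sequenced fragment can be worth several of them. With counts divided by 4 the value was 3.13.

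In the pair EXOSC4 and EXOSC9, Exosc9 was called higher and Exosc4 was not called. The difference between them was not tested. Exosc4 was at 27.8 and 29.4 CPM at 0 h and at 27.6 and 29.9 CPM at 5 h. The groups overlapped and had nearly the same range. Its log2 fold change of 0.01 had an interval from -0.32 to 0.34 (edgeR adjusted p = 0.964). Exosc4 lies wholly inside the annotated span of Oplah on chromosome 15, which had 14 to 132 counts per library beside 231 to 540 for Exosc4.

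Exosc9, also known as the autoantigen PM/Scl-75, was at 35.3 and 34.5 CPM at 0 h and at 45.7 and 49.6 CPM at 5 h. Both treated libraries were higher than both untreated ones, which lay close together. Exosc9 rose by 0.45 ± 0.13 on the log2 scale, or 1.36-fold (edgeR adjusted p = 0.0184). It did not pass without 0 h replicate 1 (adjusted p = 0.0832), without 0 h replicate 2 (0.0981) or with library totals (0.18, adjusted p = 0.293), and it was at -0.40 with mitochondrial scaling. Its span overlaps that of the cyclin gene Ccna2 by 863 bases. Ccna2 had far more counts, 1890 to 4417 per library, and the log2 fold change of Ccna2 was 0.19 ± 0.10 (edgeR adjusted p = 0.141). Exosc9 over Ccna2 was 0.155 and 0.143 at 0 h and 0.183 and 0.175 at 5 h. Whether reads of one were counted for the other was not tested. Exosc9 over Exosc8, both ring genes, was 0.475 and 0.519 at 0 h and 0.922 and 1.02 at 5 h.

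**Figure D2:**
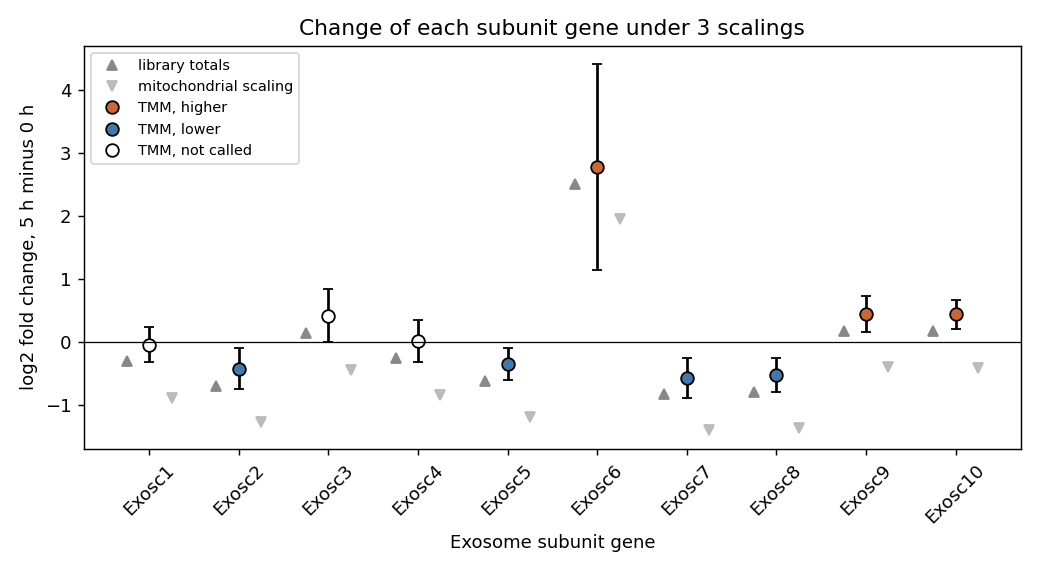
Log2 fold change (5 h minus 0 h) of each subunit gene, circles for the TMM fit with 95% intervals and filled by call, upward triangles for library totals and downward triangles for mitochondrial scaling. Of the called subunits, Exosc2, Exosc5, Exosc7 and Exosc8 stay below 0 with each scaling. Exosc9 and Exosc10 pass from 0.45 and 0.44 to -0.40 and -0.41 with mitochondrial scaling. Exosc6 stays above 0, but it entered the test only through the group in which it was high.

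Exosc10, the nuclear exonuclease also known as the autoantigen PM/Scl-100, was at 83.4 and 80.7 CPM at 0 h and at 109.5 and 113 CPM at 5 h. Replicates agreed closely, and both treated libraries were higher. Exosc10 rose by 0.44 ± 0.10 on the log2 scale, or 1.36-fold (edgeR adjusted p = 0.00536). The call was lost without 0 h replicate 2 (0.42, adjusted p = 0.0628) and with library totals (0.17, adjusted p = 0.191), and the value was -0.41 with mitochondrial scaling (adjusted p = 0.0696). Measured within each library, Exosc10 counts over the summed counts of Exosc1 to Exosc9 were 0.202 and 0.198 at 0 h and 0.302 and 0.318 at 5 h. The mean ratio was 1.55-fold higher at 5 h, and between 1.49-fold and 1.61-fold over the 4 pairings of a treated with an untreated library. Against Exosc7 alone, the subunit with the lowest log2 fold change, the ratio went from 1.55 and 1.45 to 2.68 and 3.47. This ratio, Exosc9 over Exosc8 and Exosc3 over Exosc2 each pair genes whose changes have opposite signs. A shift in them thus repeats those changes. The ratio to the sum of Exosc1 to Exosc9 partly does so too. That sum holds Exosc2, Exosc5, Exosc7 and Exosc8, called lower, as well as Exosc6 and Exosc9, called higher. Summed cap counts over summed ring counts were 0.576 and 0.596 at 0 h and 0.626 and 0.644 at 5 h.

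Expressed as a share of the counts of all 10 genes, Exosc10 held 16.7% ± 0.224 at 0 h and 23.7% ± 0.665 at 5 h (SD, n = 2). Exosc9 held 7.08% ± 0.0379 and 10.1% ± 0.614. Exosc8 went the other way, from 14.3% ± 0.972 to 10.4% ± 0.0785, as did Exosc7, from 11.1% ± 0.328 to 7.80% ± 1.19. These shares describe one gene against the others of the complex and need no choice of scaling, but they are tied to each other, since they sum to a whole. They are not per length and give no order of levels between genes. For 8 of the 10 genes the shares of the groups did not overlap, and no background was computed for shares. On the CPM scale 8 of the 10 did not overlap either, beside 73.5% of all tested genes. Exosc6 is in both counts, and entered the test only through the group in which it was high. Without it, 7 of 9 did not overlap on the CPM scale.

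**Figure D3:**
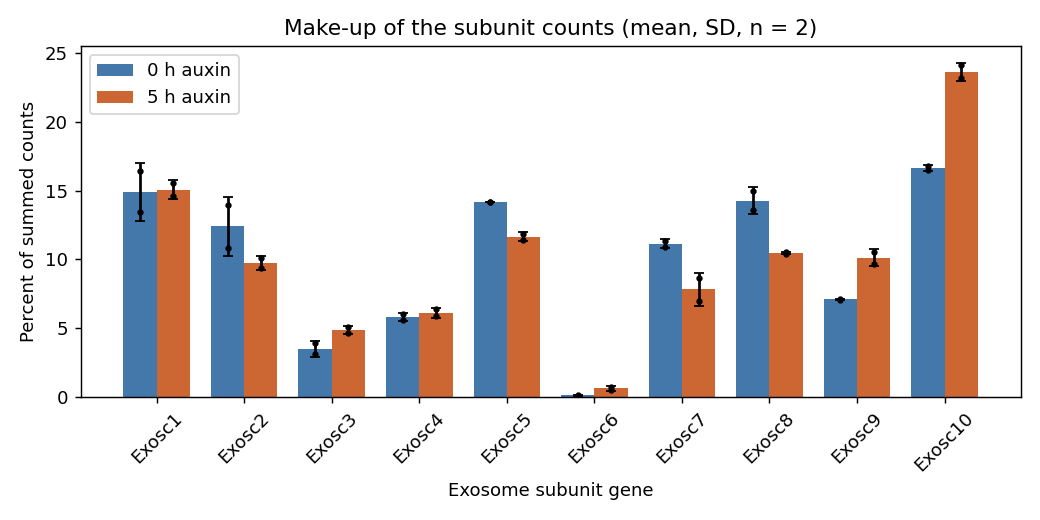
Percent of the summed counts of the 10 subunit genes taken by each, as bars for the mean of 2 libraries, SD bars and points for single libraries, blue for 0 h and orange for 5 h. Exosc10 goes from 16.7% to 23.7%, Exosc7 and Exosc8 have lower shares at 5 h, and Exosc1 and Exosc4 overlap between groups.

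Gene length was set beside the changes because U1 snRNP is known to guard long genes against early cleavage. Exosc7 (22.9 kb) and Exosc10 (24.0 kb) were the longest by annotated span and had log2 fold changes of -0.57 and 0.44. The 3761 tested genes of 20 to 50 kb had a median of -0.21, and 18.8% of them were called higher and 31.5% lower. Exosc3, Exosc4 and Exosc6, at 4.00, 3.27 and 1.33 kb, belonged to the class under 5 kb with a median of 0.49, of which 32.2% were called higher and 4.68% lower. Exosc3 was at 0.42, Exosc4 at 0.01 and Exosc6 at 2.78. The other 5 subunits spanned 6.69 to 13.1 kb, a class with a median of -0.0034 and with 24.8% called higher and 20.2% lower, and held 3 called lower, 1 called higher and 1 not called.

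Many subunit genes sit close to another gene, and the stretches before their starts are shown for the genes discussed next. Sequences are from RefSeq (GRCm38.p6), read 5′ to 3′ on the strand of the subunit gene, in lower case. Capitals mark matches, on either strand, to CGGAAG, a core of ETS factor sites, or to the CCAAT box. The first 3 are the whole stretch between the annotated start of the subunit and that of a gene reading the other way, and the last 3 are the 100 bases before the annotated start.
Exosc1 to Zdhhc16, chr19:41933424-41933444, minus strand: agatctgtcccggggcagcct
Exosc7 to Zdhhc3, chr9:123113195-123113230, plus strand: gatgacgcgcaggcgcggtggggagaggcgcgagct
Exosc8 to Alg5, chr3:54735365-54735538, minus strand: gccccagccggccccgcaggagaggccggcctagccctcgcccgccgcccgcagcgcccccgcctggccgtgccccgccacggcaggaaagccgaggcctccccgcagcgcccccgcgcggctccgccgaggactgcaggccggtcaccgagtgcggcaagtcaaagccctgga
Exosc5, chr7:25659053-25659152, plus strand: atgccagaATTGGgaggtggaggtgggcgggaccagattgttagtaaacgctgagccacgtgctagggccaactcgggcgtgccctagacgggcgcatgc
Exosc6, chr8:111056239-111056338, plus strand: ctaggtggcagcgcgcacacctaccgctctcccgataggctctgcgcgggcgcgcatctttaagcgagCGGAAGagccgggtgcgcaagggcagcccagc
Exosc10, chr4:148558319-148558418, plus strand: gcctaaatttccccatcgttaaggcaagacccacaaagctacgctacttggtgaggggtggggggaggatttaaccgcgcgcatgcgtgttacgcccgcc

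RefSeq windows of 250 bases before to 50 after a start were found for 8 of the 10 subunits, 9 windows in all since Exosc10 has 2 starts. Exosc4 and Exosc9 had none in the table used. A CGGAAG match, on either strand, was in the windows of 5 subunits (Exosc3, Exosc5, Exosc6, Exosc8 and Exosc10), and 16.9% of all 32851 windows hold one. A CCAAT match was in those of Exosc1, Exosc2 and Exosc5, beside 37.4% of all windows. The motif AAGATGGC, a core of YY1 sites, was found for Exosc2, beside 2.75% of windows. None of the 3 motifs contains another, and a match is a description of the window only. Windows of the subunits had a median of 57.7% GC and 24 CpG pairs, beside 52.7% and 7 for all windows.

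The strand was not known for Exosc4 and Exosc9, so genes reading away from their starts could not be sought. Of the other subunits, 4 had a gene reading away from a start within 1000 bases. Each had the same sign of change as that gene, although the sign of Exosc1 (-0.04) was itself not set. The value of Exosc1 turned to 0.096 without 0 h replicate 2 and to 0.018 without 5 h replicate 2. Exosc7 and the palmitoyltransferase gene Zdhhc3 start 37 bases apart, and Zdhhc3 went from 84.1 and 69.7 CPM at 0 h to 55.8 and 52.1 CPM at 5 h. Zdhhc3 fell by 0.52 ± 0.13 on the log2 scale (edgeR adjusted p = 0.00822), beside 0.57 for Exosc7. Exosc8 and Alg5, a glucosyltransferase gene of N-glycosylation, start 175 bases apart, and Alg5 was at 18.2 and 18.8 CPM at 0 h and at 12.1 and 9.40 CPM at 5 h. Alg5 fell by 0.77 ± 0.21 (edgeR adjusted p = 0.0132), beside 0.52 for Exosc8. In both pairs, both genes were called lower.

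For the other two pairs the neighbour did not pass. Bckdha, of the branched-chain ketoacid dehydrogenase, starts 371 bases from Exosc5 and was at -0.62 ± 0.26 (edgeR adjusted p = 0.0804). Zdhhc16, which starts 22 bases from Exosc1, was at -0.14 ± 0.15 (edgeR adjusted p = 0.481), and neither gene of that pair passed. As a background, 482 head-to-head pairs of tested protein-coding genes with starts within 1000 bases were found in the tables used. The signs agreed in 50.2% of them, and both genes were called lower in 8.92%. The 4 pairs with a subunit are among them and are too few to set against that share.

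Among the remaining neighbours, Ccna2 had the same sign of change as Exosc9. Oplah (1.07) and Gpaa1 (0.69) had the same sign as Exosc4, whose own value was near 0. The orientation of Ccna2, Oplah and Gpaa1 to their subunit was not known. Supt20, Mtor and Trmt10b had the opposite sign to their subunit; Gpaa1, Mtor and Trmt10b were chosen for their position after their values were seen. Supt20, a SAGA complex gene whose end overlaps that of Exosc8 by 85 bases from the other strand, rose by 0.42 ± 0.09 (edgeR adjusted p = 0.00349), while Exosc8 fell. Supt20 was at 0.15 and did not pass with library totals (adjusted p = 0.174), and it was at -0.43 with mitochondrial scaling. Mtor, the growth-control kinase gene, ends 733 bases before Exosc10 on the same strand and fell by 0.86 ± 0.15 (edgeR adjusted p = 0.000902), from 90.0 and 91.4 CPM to 57.3 and 42.3 CPM, while Exosc10 rose. Trmt10b, a tRNA methyltransferase gene ending 478 bases from the end of Exosc3, fell by 1.43 ± 0.26 (edgeR adjusted p = 0.00142). Exosc3 was higher by 0.42 and did not pass.

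Exosc6 stands 769 bases downstream of the alanyl-tRNA synthetase gene Aars on the same strand. Aars was at 223 and 230 CPM at 0 h and at 228 and 229 CPM at 5 h, a log2 fold change of 0.01 ± 0.09 (edgeR adjusted p = 0.914). Exosc6 counts were 0.115% and 0.277% of Aars counts at 0 h and 1.45% and 0.991% at 5 h. With TMM, the low counts of Exosc6 were thus higher beside a neighbour of nearly constant level, while with library totals and mitochondrial scaling Aars was at -0.25 and -0.83. Whether any of them came from RNA running past the end of Aars was not tested, since the table gives no position within a gene.

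**Figure D4:**
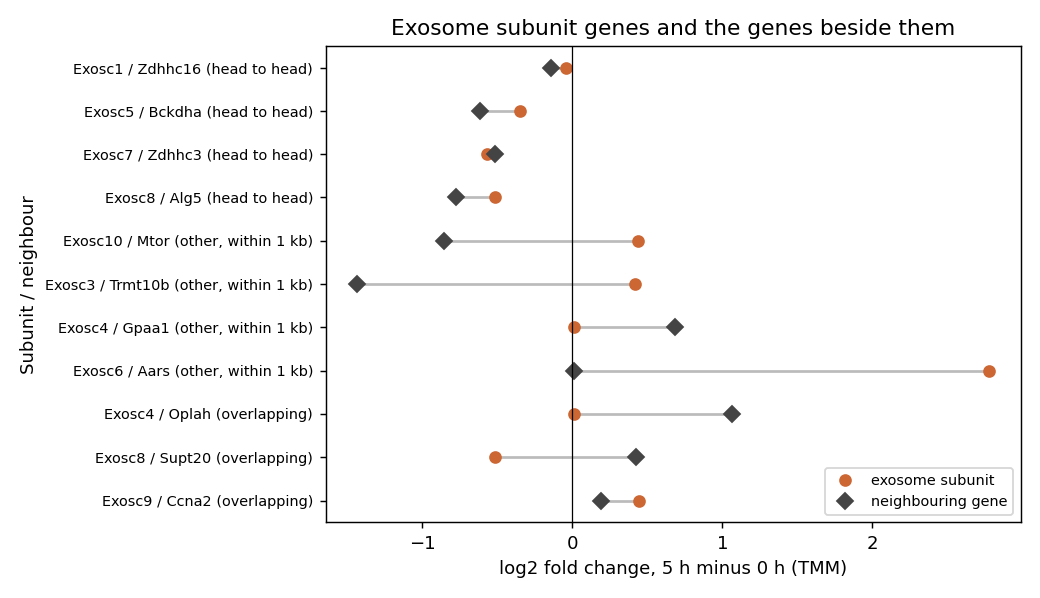
Log2 fold change (5 h minus 0 h, TMM) of each subunit gene (circles) and of a tested gene overlapping it or within 1 kb (diamonds), joined by a line. The 4 head-to-head pairs lie on the lower side, but only those of Exosc7 and Exosc8 have both genes called lower. Exosc1, at -0.04, changed sign when single libraries were left out. Exosc10 and Mtor lie at 0.44 and -0.86, and Exosc6 and Aars at 2.78 and 0.01.

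Of the 5 genes of other exosome nucleases and direct partners, 3 rose, 1 fell and 1 did not pass, beside 22.0% higher and 21.2% lower of all tested genes. With library totals 1 of the 5 was called higher and 1 lower, beside 13.2% and 30.3% of all tested genes. Dis3, the processive exonuclease and endonuclease below the ring, went from 380.1 and 396 CPM at 0 h to 598 and 724 CPM at 5 h. Dis3 rose by 0.77 ± 0.10 on the log2 scale (edgeR adjusted p = 0.000225), and was at -0.09 with mitochondrial scaling. Exosc10 over Dis3 counts went from 0.219 and 0.203 at 0 h to 0.183 and 0.157 at 5 h, lower in both treated libraries. Dis3l, its cytoplasmic counterpart, was at 11.6 and 13.0 CPM at 0 h and at 6.42 and 8.43 CPM at 5 h, and fell by 0.73 ± 0.25 (edgeR adjusted p = 0.0379).

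Mtrex, the MTR4 helicase that feeds RNA into the nuclear exosome, rose by 0.38 ± 0.10 (edgeR adjusted p = 0.0110). Mphosph6, which ties MTR4 to the core, rose by 0.40 ± 0.13 (edgeR adjusted p = 0.0263). Both were lower with mitochondrial scaling, at -0.48 and -0.45, and neither passed with library totals. C1d, which binds EXOSC10, was at 0.15 ± 0.21 and did not pass (edgeR adjusted p = 0.597).

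Lists of adaptors give the setting of the subunits. Of 7 genes of the NEXT and PAXT adaptors, which link MTR4 to short-lived nuclear RNAs, 6 rose and 1 did not pass, with a list median of 0.44, beside the 22.0% of all tested genes called higher. With library totals 3 of the 7 were called higher, beside 13.2% of all tested genes. With mitochondrial scaling 3 of the 7 were called lower, beside 51.2% of all tested genes. Rbm7 (0.74 ± 0.10) and Zcchc8 (0.67 ± 0.10), the partners of MTR4 in NEXT, and Pabpn1 (1.08 ± 0.10) had the lowest adjusted p. Of 5 genes of the nuclear cap-binding complex and ARS2, which recruit these adaptors, 4 rose and 1 did not pass, with a median of 0.57, among them Ncbp3 (0.60), Zc3h18 (0.59) and Srrt (0.57), the gene of ARS2. Of the 3 genes of TRAMP-like polyadenylation, which tags RNA for the exosome, Tent4a (0.82) and Tent4b (0.45) rose and Zcchc7 fell by 0.39. Tent4b did not pass with library totals (0.18, adjusted p = 0.184). With mitochondrial scaling Pabpn1 stayed above 0, at 0.24, and the other genes named here that rose were below 0.

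In the cytoplasm, the SKI complex threads RNA into the exosome. Of the 4 genes listed with it, Wdr61 (0.37) and Hbs1l (0.33) rose and 2 did not pass, among them the helicase gene Skiv2l at 0.33 (edgeR adjusted p = 0.0958). With library totals neither Wdr61 (0.11, edgeR adjusted p = 0.549) nor Hbs1l (0.059, edgeR adjusted p = 0.669) passed. With that scaling 1 of the 4 was called lower, beside 30.3% of all tested genes. Nvl, an ATPase that binds MTR4 in ribosome assembly, fell by 0.30, and Nrde2, an inhibitor of MTR4, was at -0.07 and did not pass. Over all 36 listed decay genes outside Exosc1 to Exosc10, 19 rose and 9 fell with a median of 0.33, beside -0.01 for the 10 subunits and -0.02 for all tested genes, of which 22.0% were called higher and 21.2% lower. With library totals 9 of the 36 were called higher and 10 lower, beside 13.2% and 30.3% of all tested genes. The list median was then 0.059, beside -0.28 for all tested genes. With mitochondrial scaling 0 of the 36 were called higher and 22 lower, beside 2.28% and 51.2% of all tested genes. The list median was then -0.52, beside -0.86 for all tested genes. The lists were drawn up with earlier results of these data known, and the difference between their medians was not tested.

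**Figure D5:**
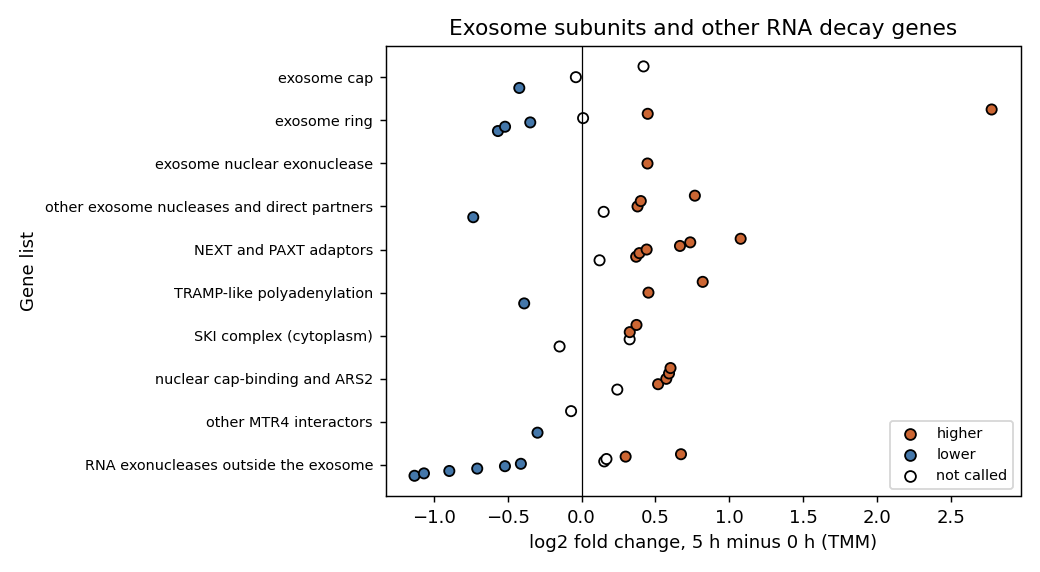
Log2 fold change (5 h minus 0 h, TMM) of the exosome subunits by position in the complex and of other RNA decay lists, 1 point per gene, orange for called higher, blue for called lower and white for not called. The ring holds both called directions, from -0.57 for Exosc7 to 0.45 for Exosc9. Exosc6, at 2.78, entered the test only through the group in which it was high. Of the NEXT and PAXT genes 6 of 7, and of the cap-binding genes 4 of 5, are called higher.

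The genes most like the extremes were sought by the root mean square difference of centred log2 CPM over the 4 libraries. For Exosc7, the lowest subunit, they were Bnip1 (difference 0.0203), Faap24 (0.0219) and Madd (0.0232), with log2 fold changes of -0.61, -0.60 and -0.59. For Exosc6, the highest, they were Diras1 (0.135), Crabp2 (0.166) and 0610010K14Rik (0.182), at 2.39, 2.59 and 2.15. The match to Exosc6 was looser, and its counts were low. With 4 libraries in 2 groups such likeness mostly repeats the size of the change.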

How the data were processed

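Libraries of 4sU-labelled RNA from 4 samples (2 at 0 h, 2 at 5 h of auxin) were compared. The deposited table holds whole-number gene counts treated here as estimated counts: per the file headers and row names they have the layout of a StringTie export, and the deposited columns hold the values 3 and 4 more often than the value 2, as counts from coverage can. The submitters' processing notes name HISAT2 2.2.1, StringTie 2.2.1, DESeq2 1.42.0 and mm10 without roles. The sources used here give neither the annotation nor the strand setting, and reads of overlapping genes cannot be told apart.

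Counts were filtered with filterByExpr (minimum count 10), scaled with TMM and fitted in edgeR 4.0.16 (quasi-likelihood, robust, no replicate block), 5 h minus 0 h, over 17344 genes. The threshold was a Benjamini-Hochberg adjusted p under 0.05 over all of them. SE and 95% intervals come from that fit. The fit was tested on simulated data. Alternatives were library totals, mitochondrial scaling, DESeq2 1.42.0, limma-voom (limma 3.58.1), other filters, counts divided by 4, a replicate block and leaving out each library. Positions, spans and sequences come from RefSeq (GRCm38.p6). Spans were known for 87.1% of tested genes. Floors cover counting error only. No column of another sample was present.

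The members and gene lists were chosen with earlier results of these data known. Named were all subunits, all direct partners, the 3 genes of each other list with the lowest adjusted p, Snrnp70, genes overlapping a subunit or starting within 1000 bases of its start on the other strand, and the 3 protein-coding genes most like the highest and the lowest subunit. Aars, Mtor, Trmt10b and further genes outside that rule were chosen after their values were seen.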

Additional observations from a re-analysis of the deposited data

How the results depend on the processing

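With 2 libraries a group, leaving out 1 library ended the call of several subunits, while Exosc7 kept its call under all 12 alternatives run. Library totals and mitochondrial scaling are among them and favour a call of lower. Exosc6 rests on 5 counts per untreated library and missed the threshold with mitochondrial scaling (adjusted p = 0.0548) and without 5 h replicate 1 (0.0621).

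With library totals 1 subunit was called higher and 4 lower, with a subunit median of -0.28. The 1 called higher was Exosc6, which entered the test only through its counts after auxin. Over all genes, 2297 were called higher and 5257 lower. With mitochondrial scaling 0 subunits were called higher by edgeR's quasi-likelihood test and 6 lower, with a median of -0.86. At an unadjusted p under 0.05, 1 subunit, Exosc6, was higher. Over all genes, 396 were called higher and 8872 lower with this scaling. Apart from it, DESeq2 with its own scaling and limma-voom with the TMM scaling of the main fit each called 3 subunits higher. DESeq2 called 2 subunits lower. Leaving out one library gave 1 to 3 subunits higher, 1 to 3 lower, 3031 to 3642 genes higher and 2840 to 3753 lower, with a subunit median from -0.10 to 0.07. The stricter filter, at least 1 CPM in all 4 libraries, removed Exosc6, and Exosc4 was then at -0.017.

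Leaving out one library turned the sign of Exosc1 (-0.17 to 0.096) and Exosc4 (-0.040 to 0.062). Exosc4 also turned with library totals (-0.26), where C1d (-0.12), Aars (-0.25) and Ccna2 (-0.080) did so too. With mitochondrial scaling the sign turned for Exosc3 (-0.44), Exosc4 (-0.84), Exosc9 (-0.40), Exosc10 (-0.41), Dis3 (-0.094), C1d (-0.70), Mphosph6 (-0.45), Mtrex (-0.48), Rbm7 (-0.11), Zcchc8 (-0.18), Tent4a (-0.030), Tent4b (-0.41), Hbs1l (-0.52), Wdr61 (-0.47), Skiv2l (-0.51), Zc3h18 (-0.25), Srrt (-0.26), Ncbp3 (-0.25), Eri1 (-0.18), Gpaa1 (-0.13), Aars (-0.83), Supt20 (-0.43) and Ccna2 (-0.67). This scaling moves the median of all genes to -0.86 by construction. The scalings of neighbouring genes and of the counts of the other decay lists were added after seeing the data.

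The replicate numbers are shared between groups but nothing says that they mark a common day or culture, and deviations of same-numbered libraries correlated at 0.0505 across genes. With the replicate block 3 subunits were called higher and 4 lower, with a median of -0.01, and 3837 genes were called higher and 3545 lower.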

Other observations

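Of 10 listed RNA exonucleases that act outside the exosome, 6 were called lower after auxin, 2 higher and 2 did not pass by edgeR's quasi-likelihood test, with a list median of -0.46, beside 21.2% lower and 22.0% higher of all tested genes. With library totals 6 were called lower and 1 higher, beside 30.3% and 13.2% of all tested genes. With mitochondrial scaling 9 were called lower, beside 51.2% of all tested genes. Xrn1, the cytoplasmic 5′ to 3′ exonuclease, was at 133 and 144 CPM at 0 h and at 70.7 and 78.4 CPM at 5 h, and fell by 0.90 ± 0.11 on the log2 scale (edgeR adjusted p = 0.000120). Parn, a poly(A)-specific exonuclease, fell by 0.71 ± 0.13 (edgeR adjusted p = 0.00162). Eri1, which trims histone mRNA and ribosomal RNA ends, rose by 0.67 ± 0.10 (edgeR adjusted p = 0.000360) and was at -0.18 with mitochondrial scaling. Xrn1 and Parn span 103 and 130 kb and Eri1 30.3 kb, and the part of gene length in these values was not tested.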
